A study of Mus musculus with 3 samples.

Results

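Goblet mucus granule genes were followed through 3 single-cell RNA sequencing (scRNA-seq) libraries of mouse intestinal crypts. The set was the 7 genes Muc2, Fcgbp, Clca1, Zg16, Tff3, Agr2 and Spink4, matched by symbol to the gene list of the libraries, and all 7 were found among its 51912 genes. All 7 were measured in every library, and none fell below the low-level limit used for the comparisons.

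Goblet cells are the secretory cells that fill a storage granule with mucus and release it onto the epithelial surface, where it hydrates into the layer that keeps bacteria away from the cells. Muc2 is the gel-forming mucin of this layer. Fcgbp is a large secreted protein of the mucus network, Clca1 is a secreted protease of the mucus, Zg16 is a lectin-like protein that binds bacterial cell walls, and Tff3 is a trefoil peptide that takes part in epithelial repair. Agr2 is a protein disulfide isomerase of the endoplasmic reticulum that is needed to fold Muc2, and Spink4 is a small protein of the Kazal protease inhibitor family.

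Both Arid3a cKO libraries came from VillinCreERT2, Arid3a fl/fl mice and the WT library from a VillinCreERT2 mouse, so the tamoxifen-dependent recombinase, driven by the Villin promoter throughout the intestinal epithelium, was present in every animal. All mice were given tamoxifen, starting when they were 8 to 10 weeks old, and the intestine was taken 1 month after the first dose. Crypts were dissociated, and living Epcam-positive, CD45-negative and CD31-negative cells were sorted. The design names 2 biological replicates per condition, and a second WT library was not analysed here. With 2 libraries against 1 the smallest one-sided exact permutation p is 0.333, so no test between genotypes was made, and intervals cover counting error only. Values are given in the order Arid3a cKO 1, Arid3a cKO 2 and WT. Levels are unique molecular identifiers (UMIs) of a gene per 1000000 UMIs of the cells concerned (CPM). Each UMI tags the 3′ end of 1 transcript, so that counts do not grow with transcript length.

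Cells with at least 1000 genes and at most 15% mitochondrial UMIs were kept, 2134, 1550 and 1910 cells (31.2%, 22.5% and 16.2% of the barcodes) with median depths of 31392, 35764 and 29895 UMIs. Between 11 and 18 barcodes were shared by any pair of libraries, and at most 2 of them were kept in both. They were grouped without the 7 genes, and the goblet-like cluster held 110, 109 and 129 cells. Of 17 goblet markers that are not in the set, 14 were among the 50 leading genes of this cluster. Of 11 immune or stromal markers, 9 had no UMI in its cells in any library. Paneth markers, which the sort does not remove, summed to 6525, 10392 and 2615 CPM there. Arid3a itself was at 0.592, 0.894 and 2.57 CPM over all kept cells (42, 52 and 161 UMIs), lower in both libraries labelled cKO. In goblet-like cells it was at 2.36 CPM (95% Poisson interval 0.867 to 5.14), 2.85 CPM (1.31 to 5.42) and 6.37 CPM (3.99 to 9.65), from 6, 9 and 22 UMIs, and these intervals overlapped. Which part of Arid3a is deleted is not given in the sources used here, so the 3′ tags may lie outside it.

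The 7 genes lie on 5 chromosomes, in GENCODE M21 coordinates of GRCm38. Muc2 (ENSMUSG00000025515, 7:141690340-141754693, plus strand), Fcgbp (ENSMUSG00000047730, 7:28071236-28120862, plus strand) and Zg16 (ENSMUSG00000049350, 7:127050156-127087328, minus strand) are on chromosome 7, far apart from each other. Clca1 (ENSMUSG00000028255) is at 3:145003817-145032776 on the minus strand, Tff3 (ENSMUSG00000024029) at 17:31125306-31129646 on the minus strand, Agr2 (ENSMUSG00000020581) at 12:35992907-36004087 on the plus strand and Spink4 (ENSMUSG00000028415) at 4:40920052-40931395 on the plus strand. No transcript of another gene matched any of the 7 over at least 91 bases at 95% identity or more, the length and identity at which a read could be shared.

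The 250 bases before the RefSeq start were at hand for Muc2, Fcgbp and Agr2, and are shown because Muc2 and Fcgbp varied together from cell to cell while Agr2 did not follow them, as described further on. Capitals mark matches, on either strand, to 4 motifs, namely TATAA for the TATA box, CAGCTG for an E-box of basic helix-loop-helix factors, GATAA for GATA factors and ATTAAA for the AT-rich motif of ARID3A. The windows are chr7:141690090-141690339 for Muc2, chr7:28070986-28071235 for Fcgbp and chr12:35992675-35992924 for Agr2 (RefSeq, GRCm38.p6, plus strand).
Muc2: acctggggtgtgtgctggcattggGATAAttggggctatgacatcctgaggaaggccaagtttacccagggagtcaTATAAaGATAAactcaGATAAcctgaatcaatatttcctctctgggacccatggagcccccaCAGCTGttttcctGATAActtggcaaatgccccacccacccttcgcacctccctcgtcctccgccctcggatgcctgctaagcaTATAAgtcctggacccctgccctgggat
Fcgbp: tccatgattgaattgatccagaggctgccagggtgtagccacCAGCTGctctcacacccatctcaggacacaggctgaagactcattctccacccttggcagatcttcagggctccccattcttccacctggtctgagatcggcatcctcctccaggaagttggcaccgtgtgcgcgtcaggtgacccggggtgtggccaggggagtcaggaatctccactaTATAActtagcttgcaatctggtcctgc
Agr2: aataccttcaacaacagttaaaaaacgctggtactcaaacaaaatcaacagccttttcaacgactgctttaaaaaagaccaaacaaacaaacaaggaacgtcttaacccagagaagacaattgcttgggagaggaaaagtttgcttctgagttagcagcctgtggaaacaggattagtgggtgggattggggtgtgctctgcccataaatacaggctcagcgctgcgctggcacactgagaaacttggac
Muc2 and Fcgbp both had TATAA from base -28 to base -24 before the start, and both had a CAGCTG further upstream. TATAA at exactly these bases was found in 0.402% of 32851 promoter windows of this length. The position was that of the Muc2 and Fcgbp matches themselves, so this share is not an independent background. A share for the neighbouring positions was not computed, so how unusual the shared position is was not tested. TATAA at any position was found in 22.8% of the windows, CAGCTG in 13.0%, and both together in 2.51%. Muc2 also had 4 matches to GATAA, which 22.6% of the windows held at least once. Agr2 had no exact match to the 4 motifs in its window, and ATTAAA (12.65% of the windows) was in none of the 3. Near matches were not counted. The Agr2 window ends at 35992924, inside the GENCODE span that starts at 35992907, while the other windows end just before their spans. Positions in the Agr2 window are thus not aligned like those of Muc2 and Fcgbp. Muc2 and Fcgbp windows were 53.2% and 56.4% GC, and that of Agr2 was 44.4% GC, against a median of 52.4%. These matches describe letters only.

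Goblet-like cells held most of the UMIs of all 7 genes in every library. For Zg16 they held 95.1%, 93.2% and 94.2% of the UMIs of a library, the highest share of the set. For Clca1 the shares were 92.5%, 89.5% and 91.1%. Muc2, Fcgbp, Tff3 and Agr2 had between 82.4% and 89.2%. Spink4 differed, with 57.1%, 75.4% and 61.8% of its UMIs in goblet-like cells and 37.9%, 16.1% and 25.7% in Paneth-like cells. Few cells carried the bulk of each gene. The top 15, 16 and 19 cells of a library held 50% of its Zg16 UMIs, and for Fcgbp, the most evenly spread of the 7, it took 39, 37 and 43 cells.

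**Figure D1:**
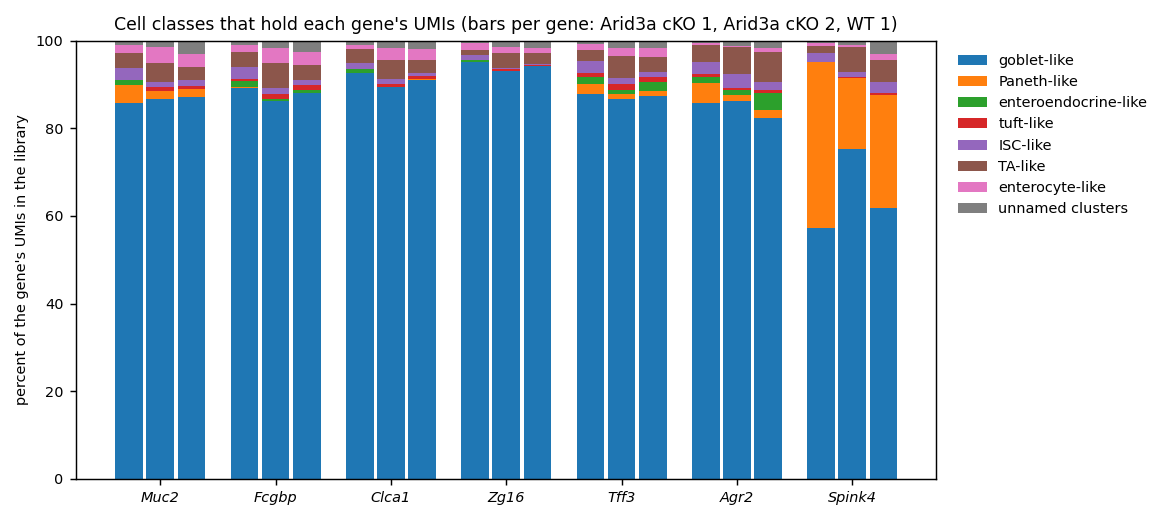
Percent of each gene's UMIs found in each cell class (vertical axis, 0 to 100%), with 3 stacked bars per gene for Arid3a cKO 1, Arid3a cKO 2 and WT. Goblet-like cells fill most of every bar, from 82.4% upward for 6 genes, while Spink4 has 16.1% to 37.9% in Paneth-like cells.

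Within goblet-like cells Zg16 was the most abundant of the set, at 117750, 130651 and 127875 CPM, which was 43.3%, 46.4% and 45.5% of the UMIs of the 7 genes together. Tff3 followed at 72395, 65137 and 74054 CPM. Fcgbp (25463, 25481 and 26084 CPM) and Spink4 (24683, 29053 and 21071 CPM) came next, and their order changed between libraries. Agr2 (11448, 14716 and 11810 CPM) and Muc2 (11387, 10002 and 13042 CPM) likewise changed places, and Clca1 was the lowest at 8858, 6826 and 7183 CPM. The neighbours Fcgbp and Spink4, and Agr2 and Muc2, thus did not differ beyond the spread over libraries. The mucin itself made up 4.19%, 3.55% and 4.64% of the UMIs of the set.

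Together the 7 genes made up 27.2% (95% exact binomial interval 27.1 to 27.3%), 28.2% (28.1 to 28.2%) and 28.1% (28.1 to 28.2%) of all UMIs of goblet-like cells. Single cells varied far more than libraries. The share of a cell's UMIs from the set ran from 1.47% to 62.1% in Arid3a cKO 1, from 0.922% to 64.7% in Arid3a cKO 2 and from 1.53% to 66.3% in WT, with medians of 30.4%, 33.1% and 29.6%. At least 20% was reached by 71 of 110, 71 of 109 and 88 of 129 cells. Outside this cluster such a share was rare, with 1 enterocyte-like cell in Arid3a cKO 1 and 1 transit-amplifying (TA)-like cell in Arid3a cKO 2.

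**Figure D2:**
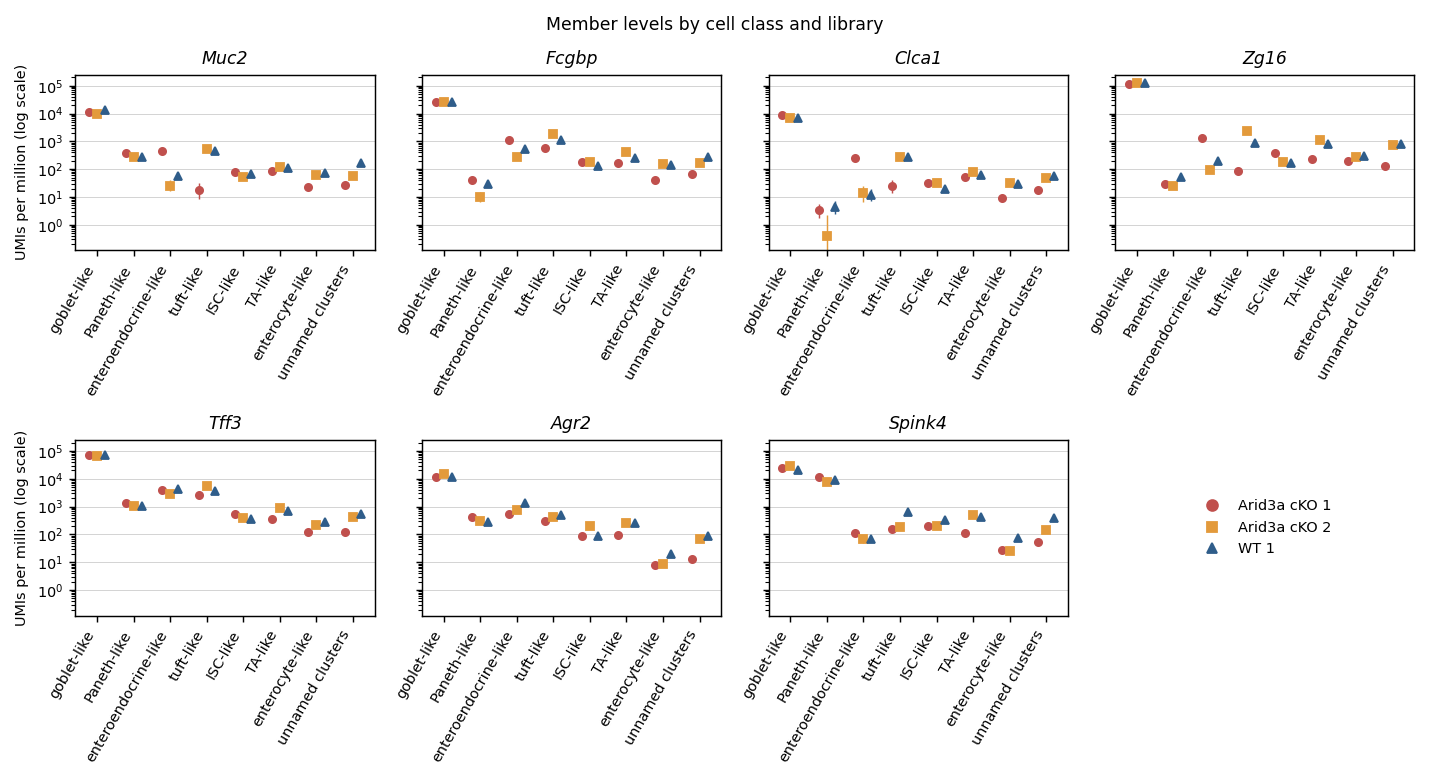
Level of each of the 7 genes (CPM, log scale) in each cell class, with a point per library and vertical lines for 95% Poisson intervals. All 7 are highest in goblet-like cells, and Spink4 has its next level in Paneth-like cells, at 11551, 7703 and 9480 CPM.

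Spink4 was also abundant in Paneth-like cells. In Paneth-like cells, the defensin-making cells of the crypt base, it was at 11551, 7703 and 9480 CPM (34, 17 and 28 cells), and the median cell had 6416, 7692 and 7421 CPM. WT lay between both cKO libraries in the summed level. Zg16, the most abundant member in goblet-like cells, was at only 29.7, 25.2 and 50.4 CPM in the same Paneth-like cells, and Clca1 at 3.33, 0.393 and 4.38 CPM. Spink4 made up 83.7%, 82.5% and 85.0% of the UMIs of the set there, against 9.08%, 10.3% and 7.50% in goblet-like cells. After each cell was thinned to 21000 UMIs, all 28, 14 and 24 Paneth-like cells that were deep enough had a Spink4 UMI. Tff3, at 1372, 1022 and 1038 CPM, was the second member in Paneth-like cells, while Agr2 (420, 301 and 279 CPM) and Muc2 (391, 273 and 266 CPM) were lower.

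Enteroendocrine-like cells, the hormone-secreting cells of the epithelium, had Tff3 as their leading member, at 3892, 2788 and 4201 CPM. The median cell had 949, 1066 and 1375 Tff3 CPM, against 35.5, 30.7 and 57.5 CPM in enterocyte-like cells, the absorptive class. Agr2 was the second member by summed level in Arid3a cKO 2 and WT (562, 785 and 1303 CPM), but its median over enteroendocrine-like cells was 0 in every library, and it had a UMI in 41.3%, 44.2% and 43.5% of the cells. In tuft-like cells, a rare chemosensory class, Tff3 was again the leading member, at 2584, 5573 and 3808 CPM, with medians of only 194, 203 and 256 CPM, so that a few cells carried the sum. Of 44, 27 and 51 tuft-like cells, 5, 5 and 8 had at least 1% of their UMIs from the set.

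Stem (ISC)-like, TA-like and enterocyte-like cells had low levels of all 7 genes. In these classes the WT library was the highest for most of the 7 genes once the few cells with 1% or more of their UMIs from the set were left out (this limit was chosen after the values were seen). In the enterocyte-like cells that remained (831, 597 and 698 cells), Zg16 was at 66.2, 63.4 and 118 CPM, Tff3 at 56.0, 40.6 and 79.5 CPM, Fcgbp at 15.4, 15.01 and 36.0 CPM, and Muc2 at 12.4, 8.67 and 28.6 CPM. WT was above both cKO libraries for all 7 genes. It was above both for 6 of 7 genes in ISC-like cells, the exception being Tff3 (169, 82.9 and 162 CPM), and for 6 of 7 in TA-like cells, the exception being Clca1 (27.3, 2.92 and 12.0 CPM). With every cell included, sums in these classes followed single cells and the direction differed between classes. In ISC-like cells 4 genes were then higher in both cKO libraries and 1 was lower, and in enterocyte-like cells 5 were lower and none higher. Over all kept cells 43.0% of genes were higher and 32.8% lower in both. Shares over all genes were not computed within these classes, so the counts cannot be read as particular to the set.

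**Figure D3:**
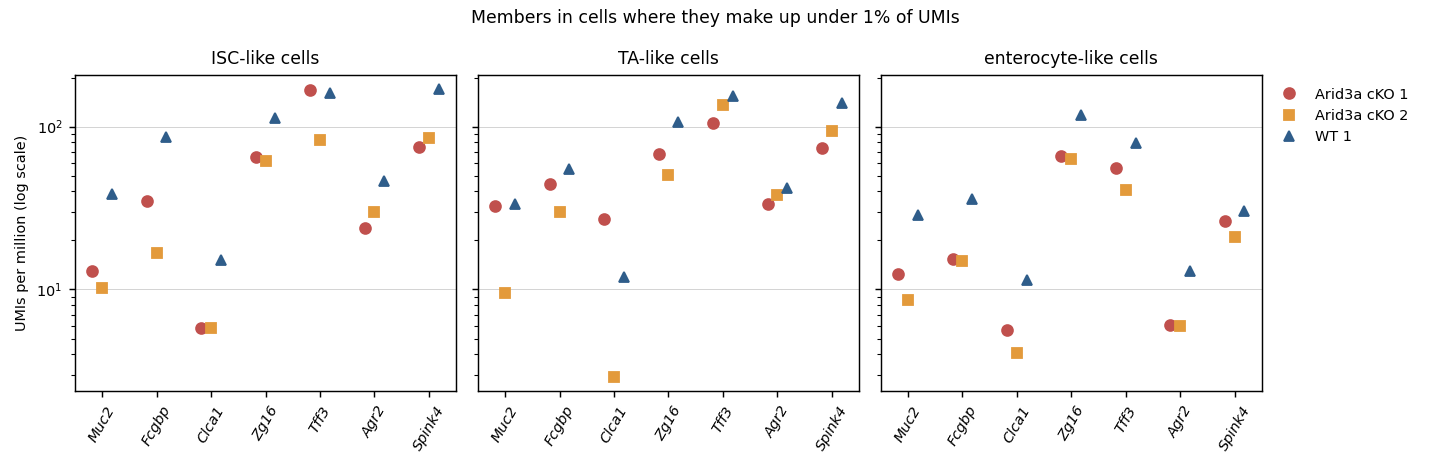
Level of the 7 genes (CPM, log scale) in ISC-like, TA-like and enterocyte-like cells in which they make up under 1% of UMIs, with a point per library. The WT points are the highest for 6, 6 and 7 of the 7 genes in these classes.

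In enterocyte-like cells the share of cells with a UMI was also highest in WT for most of the 7 genes, but not for Spink4. After thinning to 21000 UMIs, which left out 392, 276 and 429 shallower cells of all classes, Muc2 had a UMI in 19.5%, 17.3% and 42.4% of enterocyte-like cells, and Zg16 in 68.1%, 64.3% and 85.9%. Fcgbp, Clca1 and Tff3 were also highest in WT. Agr2 had 11.4%, 10.7% and 14.1%, with overlapping intervals, and Spink4 had 39.97%, 34.1% and 39.83%. Unthinned, the Muc2 shares were 30.7%, 25.4% and 57.8%. In goblet-like cells thinned in the same way, Muc2 had a UMI in 96.6%, 98.6% and 98.7% of cells. Median depths before thinning were 32131, 36341 and 30933 UMIs in enterocyte-like and 23754, 30588 and 25818 UMIs in goblet-like cells.

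Barcodes that failed the limits moved in the same direction. In those with fewer than 1000 genes the set made up 0.138%, 0.139% and 0.242% of UMIs, and in those with over 15% mitochondrial UMIs it made up 0.108%, 0.066% and 0.242%. Zg16 took 27.5%, 30.1% and 31.4% of the UMIs of the set in the first kind, and 35.2%, 39.9% and 37.2% in the enterocyte-like cells described above. Spink4 took 8.06%, 7.845% and 5.05% there and 14.0%, 13.3% and 9.6% in those enterocyte-like cells. The part of free RNA in the low levels was not tested.

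Whether loss of Arid3a moves the mucus genes within goblet cells was addressed by the ratio of each cKO library to WT in goblet-like cells. Differences were small. The median over the 7 genes of the mean log2 ratio was -0.03, against -0.001 over all 4824 genes tested, and none of the 7 was separated, that is at least 2-fold apart from WT in the same direction in both cKO libraries. By this rule 0.249% of the genes tested were separated (0.0829% higher and 0.166% lower in the cKO libraries), so that a count of none among 7 is near the background. Spink4 was higher in both cKO libraries, by log2 ratios of 0.23 and 0.46. Muc2 was lower in both, by -0.20 and -0.38, and so were Fcgbp, by -0.03 in each, and Tff3, by -0.03 and -0.19. The sign of Fcgbp turned (0.06) with a mean over cells in place of the sum, and that of Tff3 turned (0.06) with a median over cells. For Clca1 (0.30 and -0.07), Zg16 (-0.12 and 0.03) and Agr2 (-0.04 and 0.32) WT lay between the cKO libraries. Over all genes tested 36.1% were higher and 35.5% lower in both.

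**Figure D4:**
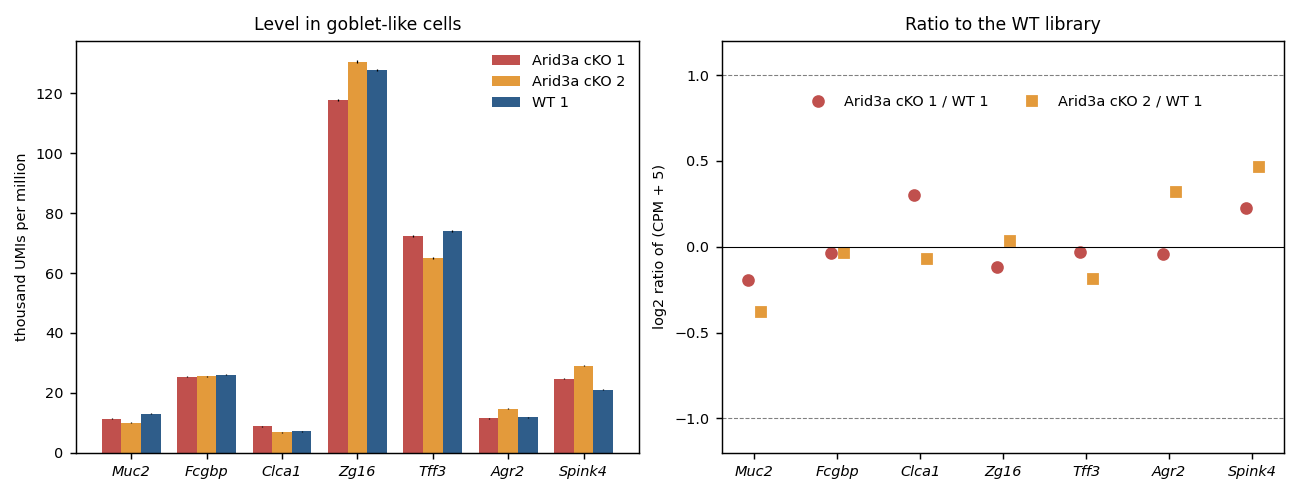
Left, level of the 7 genes in goblet-like cells (1000 CPM, axis from 0), with a bar per library and black lines for 95% Poisson intervals. Right, log2 ratio of each cKO library to WT, with dashed lines at -1 and 1, and all 14 points lie between -0.38 and 0.46.

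The cells behind these sums overlapped widely between libraries. The quartiles of Muc2 over goblet-like cells were 5204 and 23963 CPM in Arid3a cKO 1, 3796 and 21850 CPM in Arid3a cKO 2, and 6648 and 29529 CPM in WT, with medians of 12849, 11336 and 15600 CPM. For Spink4 the quartiles were 5105 and 30199, 7352 and 35577, and 5800 and 25085 CPM, with medians of 16312, 20400 and 11502 CPM. Median and sum thus gave the same order of libraries for both genes. The Paneth marker sum was also higher in both cKO libraries, and Spink4 is abundant in Paneth-like cells. The mean log2 ratio of Spink4 was 0.35 over all goblet-like cells. It was also 0.35 without the 9, 10 and 6 cells that had at least 1% of UMIs from Paneth markers (this setting was added after the values were seen). The remaining cells still had the Paneth defensin Defa24 at 684, 620 and 647 CPM. The part of Paneth RNA in the Spink4 level was not tested.

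Over all kept cells the set was lower in Arid3a cKO 1 than in both other libraries. The 7 genes made up 1.12%, 1.73% and 1.77% of all UMIs. Muc2 (475, 626 and 823 CPM), Fcgbp (1021, 1600 and 1632 CPM), Clca1 (343, 414 and 434 CPM) and Tff3 (2952, 4071 and 4661 CPM) were lower in both cKO libraries, with log2 ratios of -0.79 and -0.39 for Muc2, -0.67 and -0.03 for Fcgbp, -0.34 and -0.07 for Clca1, and -0.66 and -0.20 for Tff3. For Zg16 (4430, 7603 and 7477 CPM), Agr2 (477, 926 and 789 CPM) and Spink4 (1546, 2090 and 1878 CPM) WT lay between the cKO libraries. None of the 7 was separated, where 0.356% of 5336 genes were (0.075% higher, 0.281% lower), and none was higher in both, where 43.0% of genes were. The 4 genes lower in both stand against 32.8% of all genes.

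The part of all UMIs held by goblet-like cells had the same order of libraries as the set, whereas their share of cells did not. Goblet-like cells were 6.27% (95% exact binomial interval 5.18 to 7.51%), 8.47% (7.01 to 10.1%) and 8.00% (6.72 to 9.43%) of the cells of named classes, with overlapping intervals and WT between the cKO libraries. They held 3.58%, 5.42% and 5.51% of all UMIs. Of the Muc2 level over all kept cells, 408 of 475 CPM in Arid3a cKO 1, 542 of 626 CPM in Arid3a cKO 2 and 718 of 823 CPM in WT came from goblet-like cells. In Arid3a cKO 2 and WT goblet-like cells took nearly the same part of the UMIs, and the lower Muc2 sum of that cKO library went with its lower level inside goblet-like cells. In Arid3a cKO 1 both the part of UMIs and the level were below WT.

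The 7 genes fell into 2 groups when single goblet-like cells were compared. Muc2, Fcgbp, Clca1, Zg16 and Tff3 varied together, and Agr2 and Spink4 varied together, each gene taken relative to the UMIs of genes outside the set. Within the first group Spearman correlations over the 110, 109 and 129 cells of a library ran from 0.68 to 0.95 over 10 pairs and 3 libraries. Muc2 and Fcgbp were the closest pair, with a mean of 0.93 over the libraries, and Zg16 and Tff3 followed with 0.90. Agr2, the folding enzyme, and Spink4 had 0.63. Between the groups correlations ran from -0.45 to 0.23, the lowest being Fcgbp with Agr2. All genes of a cell share its denominator and depth, so these are descriptions of the cells, and the groups were formed after the values were seen.

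Correlations between the groups were higher in deep cells. In goblet-like cells with at least 20000 UMIs (60, 73 and 76 cells) the first group was tighter, from 0.84 to 0.97 with a median of 0.92 over its pairs. Correlations between the groups were then from -0.02 to 0.38, with a median of 0.21 where all goblet-like cells had -0.16. Agr2 and Spink4 had a mean of 0.39 over the libraries (0.33, 0.32 and 0.53). In Arid3a cKO 1 this pair did not stand above the pairs between the groups, such as Tff3 with Agr2 at 0.38. In Arid3a cKO 2 and WT it was above all of them. The negative correlations of Agr2 with Muc2 and Fcgbp were thus not seen in deep cells, whereas the closeness of the 5 granule genes was.

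**Figure D5:**
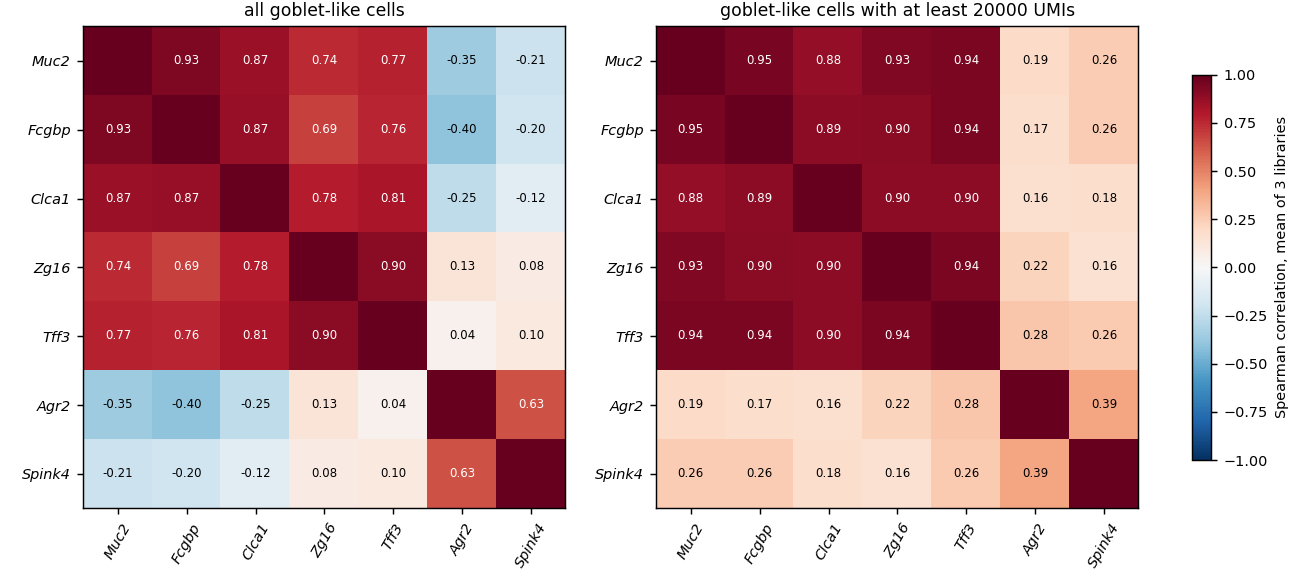
Spearman correlation of each pair of the 7 genes over goblet-like cells (colour scale from -1 to 1, mean of 3 libraries), for all goblet-like cells on the left and for those with at least 20000 UMIs on the right. The block of 5 genes is at 0.69 to 0.93 on the left and 0.88 to 0.95 on the right. The pairs between these 5 and Agr2 or Spink4 change from -0.40 to 0.13 into 0.16 to 0.28. Agr2 with Spink4 is at 0.63 on the left and 0.39 on the right.

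To describe what changed along this contrast, the cells of each library were ordered by the ratio of Agr2 and Spink4 UMIs to Muc2, Fcgbp and Clca1 UMIs and were cut into 3 parts of equal size, the first part with the lowest ratio. Zg16 and Tff3 took no part in the ordering, but they had been grouped with Muc2, Fcgbp and Clca1 from the same cells. Both were lowest in the last part, which follows from that grouping and adds no separate support for it. Zg16 was at 166150, 210130 and 45274 CPM from the first part through the middle to the last part in Arid3a cKO 1, at 243070, 220370 and 21145 CPM in Arid3a cKO 2, and at 172980, 234290 and 35612 CPM in WT. Tff3 was at 120950, 104830 and 106150 CPM in the first part of the order and at 42652, 35266 and 37406 CPM in the last. The set as a whole took a median of 36.7%, 40.9% and 36.1% of a cell's UMIs in the first part and 13.3%, 11.1% and 12.6% in the last, which alone raises the CPM of all other genes in the last part.

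Other genes went with the order in every library. Proliferation (TA) markers summed to 160, 85.4 and 19.6 CPM in the first part and to 1135, 1210 and 1127 CPM in the last, and ISC markers to 69.8, 60.5 and 33.4 against 410, 1350 and 370 CPM. In Arid3a cKO 2 the ISC sum over all goblet-like cells was 677 CPM, of which Gkn3 made up 471 CPM. Only 1 goblet-like cell of that library had at least 1% of its UMIs from ISC markers. Genes of protein folding and export from the endoplasmic reticulum (12 genes) summed to 1960, 2289 and 2395 CPM in the first part and 4238, 4803 and 4138 CPM in the last part. Of single genes of that list, Pdia6, a disulfide isomerase, had a mean correlation of 0.76 with the order and Manf, a secreted stress protein of the endoplasmic reticulum, of 0.68. Others of the list went the opposite way, such as the sulfhydryl oxidase Qsox1 (-0.58) and the stress sensor Ern2 (-0.38), and Txndc5, the most abundant, had -0.155. Genes of granule traffic (9 genes) went the other way, with 1407, 1216 and 1459 CPM against 637, 650 and 615 CPM. Sytl2, a granule-tethering protein, had a mean correlation of -0.76, and Krt20, a keratin of differentiated cells, of -0.70. Chosen after their values were seen as those with the strongest correlation on each side, the ribosomal protein genes Rps24 (0.90) and Rps13 (0.89) were at the Agr2 and Spink4 end, and Gm42418 (-0.82) and Fer1l6 (-0.79) at the other end. Depth also moved with the order. The median cell had 8776, 10227 and 10064 UMIs in the first part and 31806, 38188 and 31074 in the last, and the correlation of order and UMIs was 0.68, 0.64 and 0.66. The mitochondrial share moved too, with medians of 3.76%, 3.10% and 5.11% in the first part and 1.93%, 1.83% and 2.87% in the last, and correlations with the order of -0.41, -0.17 and -0.28. Gm42418, an rRNA-like transcript, also led an unnamed cluster of 191 cells, with a median of 10.6% mitochondrial UMIs. The part of depth and RNA quality in these differences was not tested.

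Genes of the goblet programme outside the set also differed little between genotypes in goblet-like cells. Of 10 secretory regulators, 7 were higher in both cKO libraries and none lower, with a median log2 ratio of 0.17 and none separated. Over all genes tested these shares were 36.1% higher and 35.5% lower in both and 0.249% separated, which is the background for this and the following lists. The most abundant were Klf4, a zinc-finger factor of goblet cells (737, 587 and 581 CPM), Xbp1, the factor of the unfolded protein response (256, 267 and 244 CPM), and Foxa3, a forkhead factor (212, 218 and 167 CPM). Of 12 genes of folding and export, 7 were higher and 2 lower in both, with a median of 0.16 and none separated. Txndc5, a disulfide isomerase, was at 951, 902 and 707 CPM, Manf at 585, 701 and 739 CPM and Pdia6 at 504.25, 624 and 496 CPM.

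Mucin O-glycosylation, which builds the sugar chains of Muc2, was represented by 16 genes, of which 12 passed the low-level limit of a mean of 20 CPM. Of these, 6 were higher and 2 lower in both cKO libraries, the median was 0.09 and none was separated. Galnt7, of the enzyme family that adds the first sugar, was at 323, 337 and 287 CPM, and Gcnt3, which branches the chain, at 262, 322 and 274 CPM. Of 9 granule traffic genes 8 passed the limit, 1 was higher and 1 lower in both, and the median was 0.02. Vamp8, a fusion protein of granules, was at 233, 269 and 260 CPM, Sytl2 at 222, 192 and 207 CPM and the granule GTPase Rab3d at 119, 126 and 107 CPM.

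Other mucus and granule cargo was the one list with a separated gene. Of 11 genes 8 passed the limit, 2 were higher and 1 lower in both cKO libraries, and the median of 1.31 rested on genes found in a handful of cells. Lypd8, an antibacterial surface protein, was the most abundant at 3852, 4044 and 4147 CPM (log2 ratios -0.11 and -0.04). Itln1, a lectin that is also made by Paneth cells, was separated, at 741, 1327 and 226 CPM (log2 ratios of 1.69 and 2.53). Its median was 1 UMI per cell in each library, and the top 3 cells held 48.7%, 71.0% and 28.2% of its UMIs. Without goblet-like cells at 1% of Paneth markers or more it was at 501, 286 and 160 CPM, which gives log2 ratios of 1.61 and 0.82, and it was no longer separated. Tff2, a trefoil peptide of stomach mucus, was at 1.58, 1946 and 9.56 CPM, and 3 cells held 99.7% of its UMIs in Arid3a cKO 2. Tff1 (0, 1866 and 0 CPM) and Muc6 (0, 220 and 0 CPM), other genes of stomach mucus that were singled out after their values were seen, likewise came from 9 and 2 cells of that library. The leading cells held 3987 and 1882 of its 5883 Tff1 UMIs, and the top cell held 692 of its 693 Muc6 UMIs.

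CLCA paralogs were lower than Clca1 throughout. Of 6 genes 2 passed the limit, and both were lower in both cKO libraries. Clca3b was at 95.7, 113 and 185 CPM (log2 ratios of -0.91 and -0.68) and Clca4b at 24.0, 27.6 and 56.8 CPM (-1.09 and -0.92), neither of them separated. Clca3a2, the next in level, was under the limit at 1.58, 5.39 and 8.69 CPM. Clca3b went with the Agr2 and Spink4 end of the cell order (mean correlation 0.49), where Clca1, by construction, was low. Without goblet-like cells at 1% of Paneth markers or more Clca4b was separated, with log2 ratios of -1.08 and -1.04.

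Markers of other classes in goblet-like cells were led by those of Paneth cells and enterocytes. The 19 enterocyte markers summed to 3884, 3895 and 4681 CPM, and the median cell had 2512, 2627 and 2685 CPM of them against 795, 716 and 778 CPM of Paneth markers. Defa24, a Paneth defensin, was at 5581, 7987 and 1956 CPM and Defa17 at 394, 1630 and 236 CPM. The top 3 cells held 72.1%, 79.8% and 51.3% of Defa24, and without goblet-like cells at 1% of Paneth markers or more it was at 684, 620 and 647 CPM. Among the enterocyte markers Fabp2 (1612, 1686 and 1465 CPM) and Rbp2 (412, 444 and 564 CPM) were highest, and among the enteroendocrine ones Sct (212, 314 and 314 CPM) and Gip (6.70, 2.85 and 315 CPM). In WT 1 goblet-like cell had at least 1% of its UMIs from enteroendocrine markers, and no goblet-like cell of the cKO libraries did. The part of that cell in the Gip level was not tested. Of the ISC markers Gkn3 was at 17.3, 471 and 6.37 CPM and Slc12a2 at 168, 136 and 113 CPM, and of the TA markers Stmn1 was at 138, 147 and 126 CPM and Ube2c at 157, 117 and 103 CPM. In Arid3a cKO 2 the median goblet-like cell had 95.4 CPM of ISC markers, and 1 cell had at least 1% of its UMIs from them. Tuft markers were led by Avil (3.15, 3.81 and 3.19 CPM) and Ltc4s (2.36, 2.22 and 2.61 CPM), and the immune or stromal ones by Vwf (0, 0.317 and 1.16 CPM) and Pecam1 (0.394, 0 and 0 CPM).

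Across 8 classes in 3 libraries (24 points), the genes most like the mean of the 7 were led by Sytl2 (Pearson correlation 0.96, of log2 levels, among 1128 genes with at least 100 CPM in goblet-like cells). Rep15 and Tpsg1 (0.96 and 0.95), Bcas1 and Slc12a8 (0.95 each), Ern2 and Capn9 (0.95 each), Pla2g10 and Fer1l6 (0.95 and 0.94) and Atoh1 (0.94) made up the other 9. All 10 were far lower than any member in goblet-like cells, from 132 CPM for Pla2g10 to 378 CPM for Rep15 as a mean of the libraries. Of the 10, 6 had been listed as goblet markers, which also named the cluster, and 3 in the gene lists above. Within the set, Muc2 was the closest to the other 6 members (0.92), and Spink4 the farthest (0.64). Points of 1 library share its depth and preparation, so these values are descriptions.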

How the data were processed

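Reads had been aligned and counted by the authors in CellRanger (5.0.0 per the file headers), and the values deposited by them are unnormalised UMI counts for every gene and barcode. The mouse genome build is not given in the sources used here. The 7 genes, the gene lists and the motifs were chosen with earlier results of these data known.

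Barcodes with at least 1000 genes and at most 15% mt- UMIs were kept (5594 of 25554, 21.9%). Cells were integrated and clustered in Seurat 5.3.0 (R 4.3.3) by canonical correlation analysis, with 3000 features, 30 principal components on 2000 genes and resolution 0.3, leaving out 71 reported genes. The 12 clusters were named from marker lists by their 50 leading genes, or by at least 50% of a class's markers at a fold of 1.5, a rule set after the clusters had been seen. A cluster of 749 cells and one of 191 cells (led by Gm42418, median 10.6% mt- UMIs) stayed unnamed, and an enterocyte-like cluster of 56 cells was led by interferon-response genes. Doublets were kept, as the study's methods name no removal. Scrublet (scanpy 1.11.5) marked 110 cells (1.97%).

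UMIs were summed per library and class and scaled to CPM. Log2 ratios are of CPM + 5, which understates changes of low genes. A gene was tested at a mean of at least 20 CPM and separated where both cKO libraries had log2 ratios of at least 1 in size and of 1 sign. This rule was tried on simulated counts with counting error only, so spread between animals or cells was not part of that trial. Intervals are exact Poisson or exact binomial at 95%. Scaling factors of edgeR 4.0.16 and DESeq2 1.42.0, other cell filters, resolution, integration, doublet removal, pseudocount, totals, cell weighting, limits and single cKO libraries were tried. Named genes were the 7, separated genes of the lists, the 3 most abundant of each list, the 10 most like the set, the 2 highest markers of each other class and Arid3a. The values of 1 gene named by this rule are not reported here.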

Additional observations from a re-analysis of the deposited data

Results flagged for a closer look

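Members whose ratio to WT pointed one way in another class and the opposite way in goblet-like cells, in both cKO libraries each time, were found among 6 classes with at least 20 cells per library. The differences between classes were not tested. Spink4, at log2 ratios of 0.23 and 0.46 in goblet-like cells, had mean log2 ratios of -0.65 in ISC-like cells (-0.60 and -0.70), -1.31 in enterocyte-like cells (-1.28 and -1.34), -1.91 in tuft-like cells (-2.07 and -1.76) and -2.1 in the unnamed clusters (-2.74 and -1.46). Its WT sums in those classes were 321, 74.6, 664 and 395 CPM, against 21071 CPM in goblet-like cells. Without the few cells with 1% or more of their UMIs from the 7 genes, Spink4 was at 74.5, 85.0 and 171 CPM in ISC-like and 26.2, 21.2 and 30.4 CPM in enterocyte-like cells. It was at 61.1, 41.4 and 75.7 CPM in tuft-like cells and 45.5, 35.3 and 105 CPM in the unnamed clusters, so that WT was still the highest. As ratios, the gaps in enterocyte-like and tuft-like cells were smaller, and so was that of Arid3a cKO 1 in the unnamed clusters. Those in ISC-like cells were larger. Fcgbp had a mean log2 ratio of 0.41 in ISC-like cells (0.42 and 0.39) against -0.03 in each library in goblet-like cells, and Tff3 had 0.37 in ISC-like cells (0.60 and 0.13) against -0.03 and -0.19. In ISC-like cells 4, 8 and 3 cells held 1% or more of their UMIs from the 7 genes. Without these cells Fcgbp was at 35.1, 16.8 and 86.0 CPM there, so that the direction turned, and Tff3 at 169, 82.9 and 162 CPM, with WT between the cKO libraries.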

How the results depend on the processing

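Removal of goblet-like cells at 1% of Paneth markers or more, the median over cells, and all kept cells as denominator of the goblet-like share were chosen after the data were seen. For the median over the 7 genes in goblet-like cells (-0.03) the cKO libraries were almost equal, so that small shifts counted as moves. It was -0.067 with at least 500 genes and at most 25% mt- UMIs, -0.12 without integration, -0.0069 with the reported genes in the clustering, -0.0031 without cells called by Scrublet, 0.0068 without the 5% of cells with the highest Scrublet scores, -0.026 with TMM and -0.023 with DESeq2 scaling, -0.069 with mt- genes and members out of the total, 0.042 as a mean over cells, -0.0004 as a median over cells and 0.019 without the cells at 1% of Paneth markers. Its sign carries no information. Muc2 was negative and Spink4 positive in all 16 settings (-0.38 to -0.20 and 0.23 to 0.67). The other 5 members changed sign in goblet-like cells in at least 1 setting. The mean cKO to WT difference in the share of UMIs from the set was -1.41 percentage points with the wider limits and -2.16 without integration, against -0.419 as reported. Separated genes in goblet-like cells (12) were 24 without the called doublets, 19 without the top-scoring cells and 135 at a log2 ratio of 0.5, and in all kept cells (19) 57 at 0.5. Leaving out either cKO library gave 31 to 51 and 25 to 30, since 1 library has to pass instead of 2. The cause of the other moves was not tested. The other 46 recomputed values of the main comparisons stayed within 1 SD of the cKO libraries (counts within 1.5 times). The goblet-like share and the share of UMIs from the set, with WT between the cKO libraries, changed sign. The mean difference in the former (-0.627 percentage points as reported) was 0.22 with the wider limits and 0.472 without Arid3a cKO 1, and the latter 0.129 without the top-scoring cells and 0.0747 without Arid3a cKO 1. Of the separated genes in goblet-like cells, 33.3% were higher in the cKO libraries, 20.8% without called doublets, 15.8% without top-scoring cells and 45.2% for Arid3a cKO 1 alone. No paired analysis was possible because WT has 1 library, so that only replicate number 1 occurs in both groups. WT is 1 library, which limits all comparisons, and Paneth-like cells numbered 17 in Arid3a cKO 2.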
